A study of Mus musculus with 5 samples.

Results

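The 9 genes described here encode vitamin K-dependent Gla proteins, the enzymes that modify them, and the proteins by which cells bind and take up dying cells. They were chosen by gene symbol, Mgp, Gas6, Pros1, Ggcx, Vkorc1, Axl, Mertk, Tyro3 and Mfge8, and all 9 were found among the 45706 rows of the deposited table, 1 row each. The choice was made with earlier results of the same comparison known. The differences of these genes between the groups are therefore given as a description without a test. Their intervals are not adjusted for the number of genes or for this choice, and none is read as a test. RNA was sequenced from PDGFRa-positive cells sorted from mammary glands 4 and 5 of Balb/c mice, with 3 libraries from glands 6 days after weaning, called involution day 6, and 2 libraries from nulliparous glands. PDGFRa is a surface receptor used to sort fibroblasts. Neither the animals' age nor any pooling of animals is given in the sources used here. Libraries of a group are described as biological replicates. Involution day 6 glands had also passed through pregnancy and lactation, and the groups cannot tell these stages apart from weaning.

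Gla proteins carry glutamate residues that gamma-glutamyl carboxylase (Ggcx) has carboxylated with the help of reduced vitamin K, which lets them bind calcium. The vitamin K epoxide reductase encoded by Vkorc1 returns the spent vitamin to its reduced form. Matrix Gla protein (Mgp) is a small secreted protein known for holding back calcification of soft tissue. Gas6 and protein S (Pros1) use their Gla domains to bind phosphatidylserine, the lipid that dying cells expose. They bridge it to receptor tyrosine kinases of the TAM family, named after the initials of Tyro3, Axl and Mertk. Gas6 binds each of these receptors, which is not implied here for Pros1. Mfge8, first known from milk fat globules, bridges the same lipid to alpha-v integrins. In the involuting mammary gland, dead milk-producing cells are cleared by neighbouring epithelium and by macrophages, and mice that lack Mfge8 or Mertk are known to clear them poorly.

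Mgp and Pros1 stood highest above their nulliparous level among the 9 genes, Gas6 and Axl stood somewhat lower, and the remaining receptors and the vitamin K enzymes lay close together in the groups. All 9 passed the filter on low values. The groups did not overlap for 6 of the 9 genes, 3 higher and 3 lower, a state shared by 47.0% of all tested genes, 21.9% higher and 25.1% lower. Since these genes were gathered with this comparison known, nothing is read from that count. The median log2 difference was 0.10 over the 9 genes and -0.03 over all 15912 tested genes. Replicate 1 of each group had the highest mean of macrophage, epithelial, endothelial and mural cell markers in its group, and those values are given beside Mfge8.

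**Figure D1:**
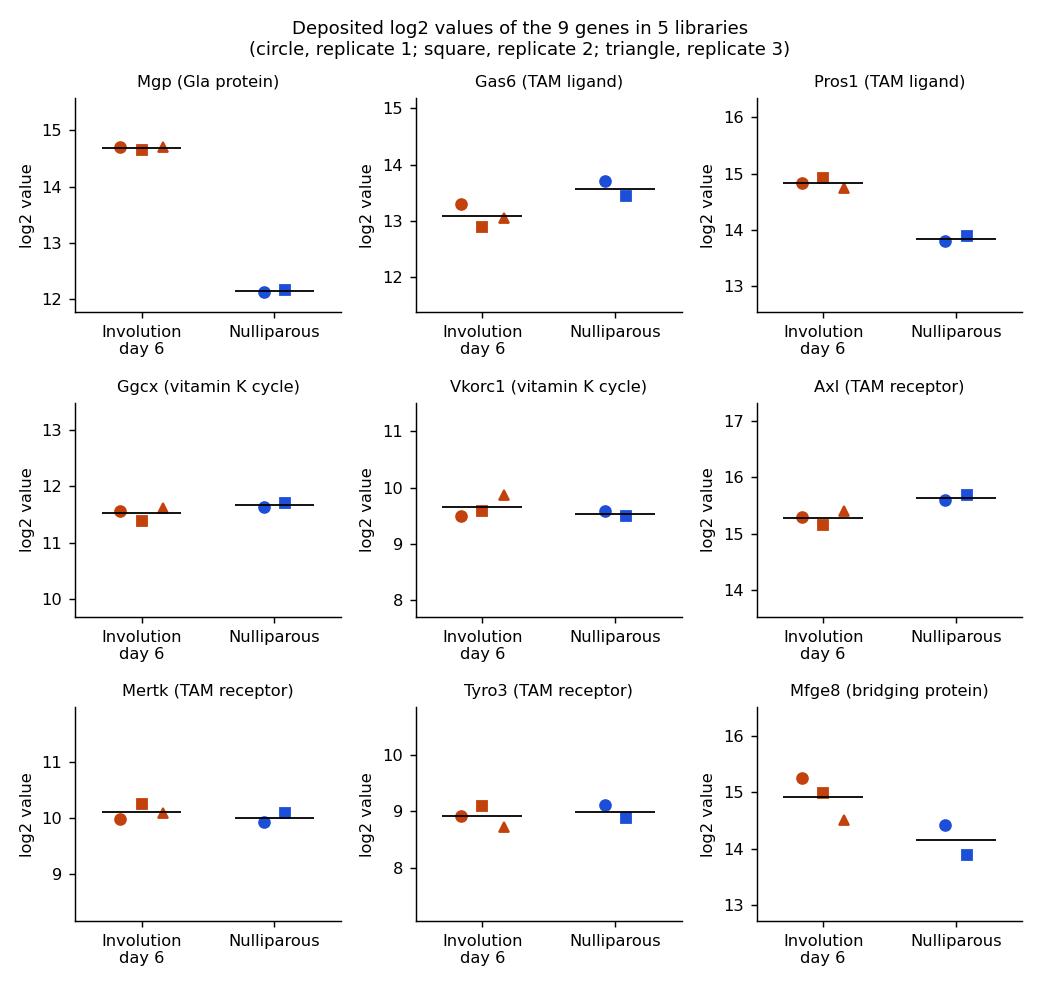
Deposited log2 values (vertical axes, each spanning the same range around the gene's mean) of the 9 genes in 3 involution day 6 libraries (orange, left) and 2 nulliparous libraries (blue, right); horizontal lines are group means and the marker shape gives the replicate number. Mgp, Pros1 and Mfge8 lie wholly higher at involution day 6, Gas6, Axl and Ggcx wholly lower, and the groups of Vkorc1, Mertk and Tyro3 overlap.

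Mgp lies on chromosome 6 from 136872435 to 136875823, on the minus strand of GRCm38. Its log2 values were 14.70, 14.65 and 14.71 in involution day 6 replicates 1, 2 and 3, against 12.14 and 12.16 in nulliparous replicates 1 and 2. The 3 involution day 6 libraries sat together at one level and the 2 nulliparous libraries at another, with 2.49 log2 units between the nearest values of the groups. The log2 difference was 2.54 ± 0.08 (SE, n = 3 and 2), which is 5.82-fold. A larger absolute difference was seen in 0.547% of all tested genes. The spread within groups was small: the residual SD of Mgp was 0.027, the lowest of the 9 genes, against a median of 0.159 over all tested genes. Over 12 alternative settings the difference of Mgp ran from 2.40 to 2.56. Settings that changed only the filter or the modelling of variance cannot move a gene's difference and left it at 2.54.

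Levels of different genes were set side by side as the unlogged value above the offset of the table, divided by the length of all annotated exons of the gene in kilobases. On this scale Mgp averaged 22230.4 ± 480.2 per kb at involution day 6 (SD, n = 3) and 3813 ± 39.5 per kb in nulliparous libraries (SD, n = 2). This placed it at ranks 59, 53 and 58 of 15857 genes in involution day 6 replicates 1, 2 and 3, against ranks 308 and 314 in nulliparous replicates 1 and 2. It was thus the most abundant of the 9 genes per length in each involution day 6 library, and in neither nulliparous library. As a share of the summed level of Mgp, Gas6 and Pros1 it held 66.8%, 67.1% and 69.3% in the involution day 6 libraries, against 30.2% and 32.2% in the nulliparous ones.

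Pros1 encodes protein S, known in blood plasma as an anticoagulant cofactor as well as a TAM ligand, and lies on chromosome 16 from 62854307 to 62929346, on the plus strand. Its log2 values were 14.83, 14.93 and 14.74 at involution day 6, against 13.80 and 13.89 in nulliparous libraries. All 3 involution day 6 values exceeded both nulliparous values, by at least 0.85. The log2 difference was 0.99 ± 0.10 (SE, n = 3 and 2), or 1.98-fold, and ran from 0.85 to 1.03 over the 12 alternatives.

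Gas6, the ligand that binds each of the TAM receptors, lies on chromosome 8 from 13465374 to 13494490, on the minus strand. It had log2 values of 13.31, 12.89 and 13.05 at involution day 6, against 13.71 and 13.44 in nulliparous libraries. Each involution day 6 value was the lower, but the nearest values of the groups were only 0.13 apart, within the spread of either group. The difference of -0.49 ± 0.15 (SE, n = 3 and 2; 95% interval -0.85 to -0.13) ran from -0.63 to -0.36 over the 12 alternatives. The value of -0.63 came from libraries scaled to equal totals, which also moved the median of all tested genes to -0.164. The intervals given for Gas6, and below for Axl and Mfge8, are not adjusted for the number of genes. They describe the spread between libraries and are not read as tests. The kit does not mark strand, and exons of Tmem255b overlap Gas6 on the other strand; Tmem255b had a mean log2 value of 5.35.

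The order of the ligands by level per length differed between the groups. Per kb of exon, Pros1 averaged 7162 ± 481 at involution day 6 (SD, n = 3) and 3607 ± 164 in nulliparous libraries (SD, n = 2). Gas6 averaged 3429 ± 512 at involution day 6 and 4807 ± 623 in nulliparous libraries. Pros1 was the more abundant in all 3 involution day 6 libraries and Gas6 in both nulliparous ones. The nulliparous order rests on the exon lengths used, 4.09 kb for Pros1 and 2.55 kb for Gas6. Before division by length, Pros1 had the higher value in all 5 libraries. Pros1 made up 64.2%, 72.0% and 66.8% of the summed ligand level at involution day 6, against 40.0% and 46.0% in nulliparous libraries. This share compares genes within a library, so a scaling factor per library does not enter it. The unknown way in which values depend on their row could still do so. The summed ligand level was 11116, 10631 and 10025.0 per kb at involution day 6, against 8739 and 8089 per kb in nulliparous libraries, so the groups did not overlap in the sum either.

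**Figure D2:**
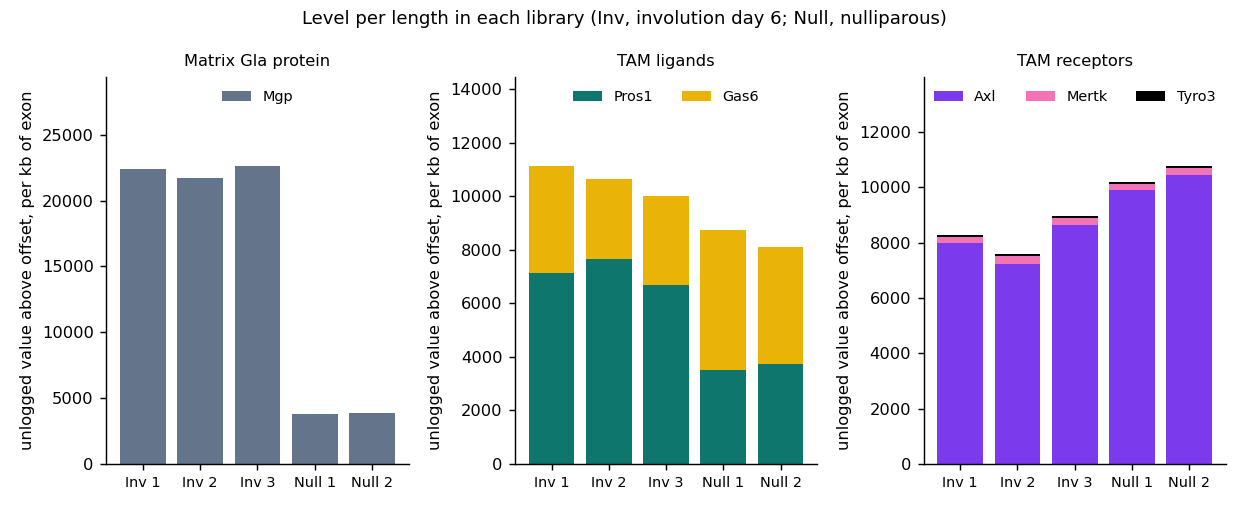
Unlogged value above the offset per kilobase of exon (vertical axes, from 0) in each library, with the 3 involution day 6 libraries left of the 2 nulliparous ones; bars are single libraries, stacked by gene for the TAM ligands and the TAM receptors. Pros1 is the larger part of the ligand bars at involution day 6 and the smaller part in nulliparous libraries, while Axl makes up at least 95.2% of the receptor bars throughout.

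The promoter windows of these 2 ligand genes are shown because both genes encode TAM ligands and had opposite differences. They run from 250 bases before to 50 bases after the annotated start, from RefSeq on GRCm38.p6, at chr16:62854057-62854356 on the plus strand for Pros1 and chr8:13494486-13494785 on the minus strand for Gas6. Both are written 5′ to 3′ along the gene, and capitals mark GGGCGG, the GC box bound by Sp1-family factors, on either strand. The start used for Pros1 matched a transcript start, and that used for Gas6 did not. The Gas6 coordinates given above end at 13494490, so nearly all of its window lies outside them.
Pros1 promoter: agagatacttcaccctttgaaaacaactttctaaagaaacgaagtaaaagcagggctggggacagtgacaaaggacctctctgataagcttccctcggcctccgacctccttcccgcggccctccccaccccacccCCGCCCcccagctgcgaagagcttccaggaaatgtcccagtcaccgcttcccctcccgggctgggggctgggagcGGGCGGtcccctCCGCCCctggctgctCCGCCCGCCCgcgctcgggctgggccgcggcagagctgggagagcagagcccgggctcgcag
Gas6 promoter: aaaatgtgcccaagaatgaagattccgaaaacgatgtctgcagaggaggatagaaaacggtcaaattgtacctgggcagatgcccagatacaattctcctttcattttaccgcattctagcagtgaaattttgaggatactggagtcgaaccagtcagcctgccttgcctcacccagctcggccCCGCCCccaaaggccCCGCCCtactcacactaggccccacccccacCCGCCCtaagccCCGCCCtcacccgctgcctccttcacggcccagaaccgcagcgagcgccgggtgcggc
The Pros1 window held 5 matches and the Gas6 window 4, counting matches that overlap each other. Neither window held the TATA box TATAAA, the CCAAT box CCAAT, the AP-1 site TGANTCA or the E-box CACGTG on either strand. The GC box occurs in 35.7% of 32851 such windows, the TATA box in 13.6%, the CCAAT box in 37.4%, the AP-1 site in 7.81% and the E-box in 7.15%. Of the 9 genes, 8 matched a window, all but Mgp, and each of the 8 held at least 1 GC box. The G and C content was 66.7% for Pros1 and 58.3% for Gas6, against a median of 52.7% over all windows. These matches describe the letters and say nothing of binding.

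The enzymes of the vitamin K cycle differed little between the groups beside the Gla proteins they serve. Ggcx, on chromosome 6 from 72414308 to 72430712, had log2 values of 11.57, 11.39 and 11.62 at involution day 6, against 11.64 and 11.70 in nulliparous libraries. The groups were 0.01 apart at their nearest values, and the difference was -0.14 (95% interval -0.37 to 0.09). Vkorc1, on chromosome 7 from 127893063 to 127895617, had values of 9.50, 9.58 and 9.87 at involution day 6, against 9.59 and 9.49 in nulliparous libraries. Its groups overlapped, and the difference was 0.11 (95% interval -0.22 to 0.44). Vkorc1 shares exons with Gm21974 on the same strand, which had a mean log2 value of 3.57, that of a row without reads. No source used here says how reads shared by them were counted, so the level of Vkorc1 is uncertain. Per kb, the summed level of Mgp, Gas6 and Pros1 was 35.8, 39.1 and 33.7 times that of Ggcx at involution day 6, against 12.8 and 11.6 times in nulliparous libraries.

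Axl was the dominant TAM receptor of these cells. It lies on chromosome 7 from 25757273 to 25788705. Axl had log2 values of 15.29, 15.15 and 15.41 at involution day 6, against 15.60 and 15.68 in nulliparous libraries. All 3 involution day 6 values were lower, with 0.19 between the nearest values of the groups. The difference of -0.36 ± 0.13 (SE, n = 3 and 2; 95% interval -0.67 to -0.04) ran from -0.50 to -0.29 over the 12 alternatives. Per kb, Axl made up 96.3%, 95.2% and 96.5% of the summed TAM receptor level at involution day 6, against 97.0% and 97.0% in nulliparous libraries.

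Mertk, the receptor known for uptake of dying cells by macrophages, lies on chromosome 2 from 128698956 to 128802894. Log2 values of Mertk were 9.99, 10.24 and 10.09 at involution day 6, against 9.92 and 10.08 in nulliparous libraries. The groups overlapped, with a difference of 0.10 (95% interval -0.17 to 0.37). Tyro3, known mostly from the nervous system, lies on the same chromosome from 119797733 to 119818104. Its values were 8.92, 9.10 and 8.72 at involution day 6, against 9.11 and 8.88 in nulliparous libraries. Again the groups overlapped, with a difference of -0.09 (95% interval -0.46 to 0.29). Per kb, Axl stood 34.4, 26.3 and 34.8 times above Mertk at involution day 6, against 44.8 and 42.1 times in nulliparous libraries, and Tyro3 was the lowest of the family in all 5 libraries. The summed receptor level was 8292, 7605 and 8961 per kb at involution day 6, against 10204 and 10761 per kb in nulliparous libraries. Set against it, the summed ligand level was 1.34, 1.40 and 1.12 times as high at involution day 6, against 0.857 and 0.752 times in nulliparous libraries. That ratio does not match each ligand to the receptors it binds. Gas6 and Axl were both lower on average at involution day 6, while Pros1 was higher. Gas6 stood at 3429 against 4807 per kb in nulliparous libraries, and Axl at 7958 against 10167 per kb.

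Mfge8 lies on chromosome 7 from 79133768 to 79149060. Its log2 values were 15.25, 14.98 and 14.50 at involution day 6, against 14.42 and 13.89 in nulliparous libraries. The 3 involution day 6 values were the higher ones, yet the lowest of them was only 0.08 above the highest nulliparous value. Mfge8 varied most within groups of the 9 genes, with a residual SD of 0.377. The difference was 0.76 ± 0.26 (SE, n = 3 and 2; 95% interval 0.14 to 1.37). It was 0.58 without involution day 6 replicate 1, 1.02 without nulliparous replicate 1 and 0.49 without nulliparous replicate 2.

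Means of 4 marker lists of other cell types had the order of Mfge8 within each group, and only that of macrophages had it over all 5 libraries. The mean log2 value of 12 macrophage markers was 9.32, 8.68 and 7.82 in involution day 6 replicates 1, 2 and 3, against 7.75 and 6.97 in nulliparous replicates 1 and 2, the same order as Mfge8 over all 5 libraries. Genes outside the 9 are called here when their adjusted p is under 0.05 in limma, fitted to the deposited log2 values of all 15912 tested genes, of which 6.65% were called higher, 4.66% lower and 11.3% in either direction. Of these 12 markers, Lyz2, Ctss and Adgre1 were called higher, 0 were called lower by limma (also 0 at an unadjusted p under 0.05), and none was at the level of a row without reads. The calls of all 3 were lost when the filter left out only rows without reads (adjusted p up to 0.143 in limma). They were lost without the prior trend (up to 0.0804 in limma) and without involution day 6 replicate 1 or 2 (up to 0.122 in limma). Leaving out either nulliparous replicate lost them as well. Summed unlogged values of the macrophage list ranged from 4627 to 13664 at involution day 6, against 2193 to 3957 in nulliparous libraries. The mean of 14 epithelial markers, among them keratins and milk protein genes, was 10.53, 9.30 and 8.13 at involution day 6, against 10.34 and 8.54 in nulliparous libraries. Within each group its order was that of Mfge8 as well, but the groups overlapped. Of the 14, the milk protein gene Wap was called higher, and 0 were called lower by limma, with 1 lower at an unadjusted p under 0.05. Wap had log2 values of 9.57, 8.14 and 7.18 at involution day 6. In nulliparous libraries it was at 3.52 and 4.08, near the value of a row without reads. Wap lost its call when the filter left out only rows without reads (adjusted p = 0.0771 in limma), and without either nulliparous replicate. Summed unlogged values of the epithelial list ranged from 9803 to 59942 at involution day 6, against 10271 to 35284 in nulliparous libraries. The mean of 8 endothelial markers was 10.23, 9.23 and 8.80 at involution day 6, against 10.23 and 9.22 in nulliparous libraries, and that of 8 mural cell markers was 9.33, 8.39 and 8.0 at involution day 6, against 9.84 and 9.02 in nulliparous libraries. Both lists followed the order of Mfge8 within each group too, so replicate 1 of each group stood highest in its group for all 4 lists. The mean of 8 adipocyte markers was 6.02, 5.71 and 5.91 at involution day 6, against 6.4 and 6.2 in nulliparous libraries. It did not follow Mfge8 at involution day 6. For 8 fibroblast markers the mean was 17.38, 17.28 and 17.17, against 17.01 and 17.04 in nulliparous libraries. That is the order of Mfge8 at involution day 6 but not in nulliparous libraries. The part of other cells in the Mfge8 values was not tested. In sorted bulk samples a different share of cells of a type and a different amount of RNA per cell cannot be told apart.

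**Figure D3:**
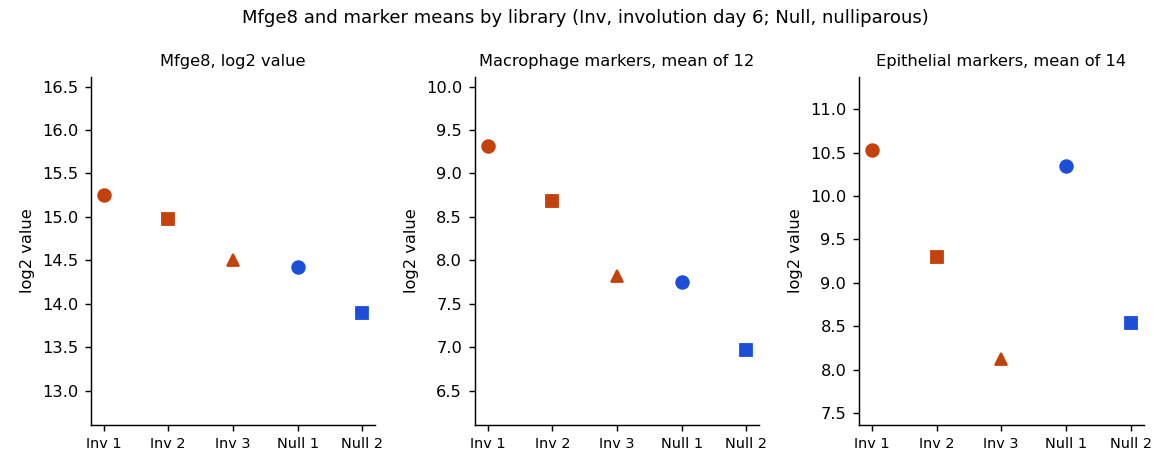
Log2 value of Mfge8 (left), mean log2 value of 12 macrophage markers (middle) and of 14 epithelial markers (right) in each library, involution day 6 in orange left of nulliparous in blue; the vertical axes span the same range. Mfge8 and the macrophage mean order the 5 libraries alike, and the epithelial means of the groups overlap.

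Ordered by level per kb, the 9 genes ran at involution day 6 from Mgp through Axl, Pros1, Mfge8, Gas6, Vkorc1, Ggcx and Mertk to Tyro3. Axl at 7958 ± 702 and Pros1 at 7162 ± 481 overlapped, as did Pros1 and Mfge8 at 6706 ± 1698, and Vkorc1 at 948 ± 132 and Ggcx at 909.9 ± 74.9 (SD, n = 3). In nulliparous libraries the order was Axl, Gas6, Mfge8, Mgp, Pros1, Ggcx, Vkorc1, Mertk and Tyro3. There Axl stood at 10167 ± 384, and the values of Mfge8 at 3947 ± 1001 spanned those of Mgp and Pros1 and overlapped those of Gas6 (SD, n = 2). Mertk, at 252.0 ± 21.8 in involution day 6 libraries and 234 ± 18.9 in nulliparous libraries, and Tyro3, at 66.3 to 86.4 in involution day 6 libraries and 74.4 to 87.5 in nulliparous libraries, took the lowest places in both.

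**Figure D4:**
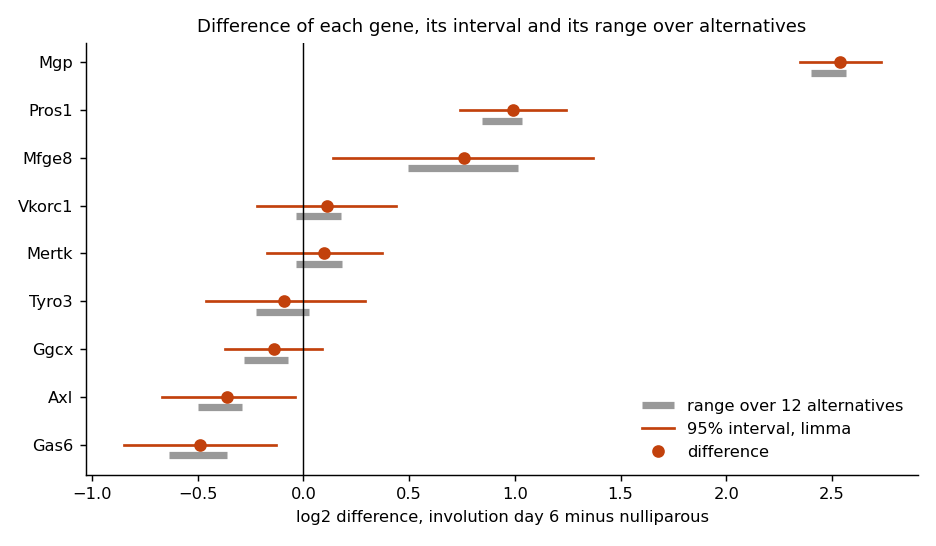
Log2 difference (horizontal axis, involution day 6 minus nulliparous) of each of the 9 genes; points are the differences in limma over 3 and 2 libraries, orange lines their 95% intervals, and grey bars the range over 12 alternative settings. Mgp, at 2.54, and Pros1, at 0.99, have the highest differences, and the grey bars of Vkorc1, Mertk and Tyro3 cross 0. The intervals are not adjusted for the number of genes and are not read as tests.

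The genes whose log2 values over the 5 libraries, centred on their own mean, came closest to those of Mgp were Acp5, which encodes tartrate-resistant acid phosphatase, Igkv6-15 and Npl, at root mean square distances of 0.074, 0.076 and 0.128 log2 units. Igkv6-15 belongs to a family of near-identical antibody segments, so its reads are uncertain. Its nulliparous values of 3.65 and 3.71 also lay near the value of a row without reads, so its distance to Mgp depends on the offset. Closest to Gas6 were Zfhx2, Rph3al and Mtfp1, at 0.024, 0.028 and 0.048. Closest to Axl was Dpt, the gene of the matrix protein dermatopontin, at 0.022, then Emc1 at 0.025 and Zcchc8 at 0.030. Closest to Mfge8 were Parvg, Sdc3 and Slc2a6, at 0.069, 0.071 and 0.075. Over 5 libraries such likeness is a description.

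Other genes of these pathways were counted in 6 lists chosen by function. Of 92 tested genes in them, 12 were called higher (13.0%) and 7 lower (7.61%) at involution day 6 by limma, against 6.65% higher and 4.66% lower of all tested genes, whose median difference was -0.03. Nothing particular to the lists is read from these shares. Counts at an unadjusted p under 0.05, for lists and for markers, have no share over all tested genes beside them and are read no further. Of 12 other Gla proteins and vitamin K genes tested, 1 was called higher and 0 lower by limma, with 2 and 1 at an unadjusted p under 0.05, and their median difference was -0.02. The gene that rose was F7, which encodes coagulation factor VII, a Gla protein made chiefly by liver. Its log2 values were 6.71, 7.41 and 7.46 at involution day 6, against 3.92 and 3.92 in nulliparous libraries, near the value of a row without reads, so its difference of 3.27 ± 0.29 (adjusted p = 0.00322 in limma) understates the change. Calu, which encodes calumenin, a binding partner of the carboxylase, differed by -0.02, and Vkorc1l1, a second epoxide reductase gene, by -0.21.

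Bridging proteins and uptake receptors moved in both directions. Of 26 tested, 5 were called higher and 4 lower by limma, with 9 and 5 at an unadjusted p under 0.05. Their median difference was 0.50. Lgals3, which encodes galectin 3, a lectin also reported as a Mertk ligand, rose 3.01-fold, with log2 values of 12.03, 12.24 and 12.23 at involution day 6, against 10.52 and 10.63 in nulliparous libraries (adjusted p = 0.0018 in limma). The integrin genes that pair with alpha-v diverged. Itgb5 rose 1.55-fold (adjusted p = 0.00777 in limma) and Itgb3 fell by 0.40 ± 0.08 on the log2 scale (adjusted p = 0.0303 in limma), while Itgav, the alpha-v chain itself, differed by 0.16 without passing. Trem2 and Cd300lb, which encode lipid receptors of myeloid cells, rose by 2.49 ± 0.43 and 1.56 ± 0.35. Their nulliparous means of 4.33 and 4.01 lay near the value of a row without reads, and with the offset removed the differences were 3.46 and 3.00. Both ordered the 5 libraries as the macrophage markers did, and the part of macrophages in them was not tested. Adgrb1, which encodes the phosphatidylserine receptor BAI1, fell by 2.17 ± 0.31, with an involution day 6 mean of 4.27 near the value of a row without reads. Tub, a gene reported as a Mertk ligand, fell by 0.89 ± 0.17, and Megf11, of an engulfment receptor family, fell by 1.28 ± 0.30. The remaining gene called higher was Tulp1, named outside the rule for named genes after its values were seen, with a difference of 0.87 that lost its call without any single library.

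**Figure D5:**
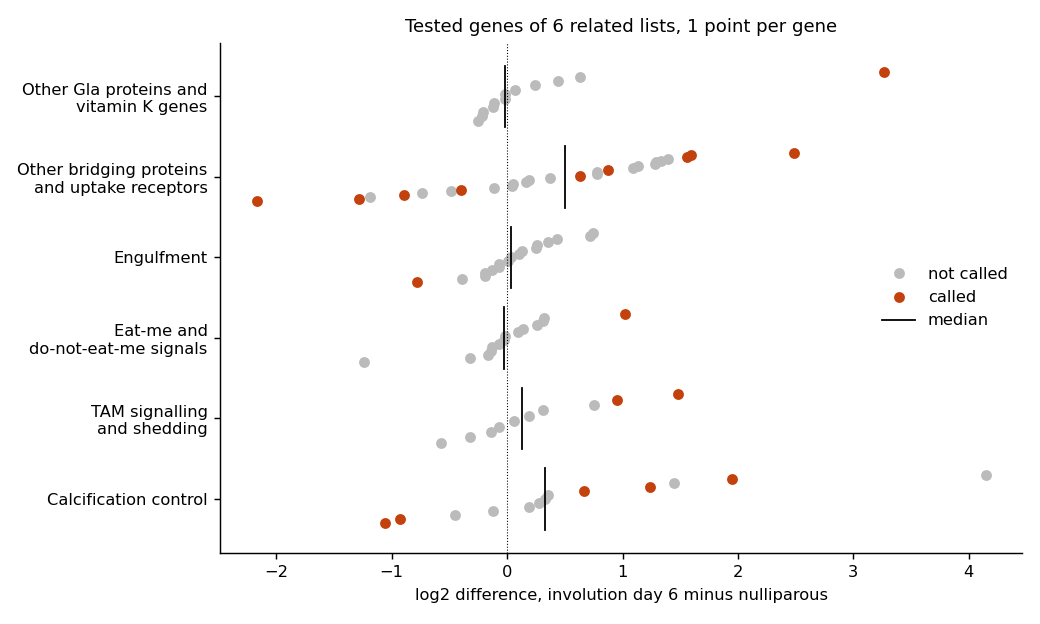
Log2 difference (horizontal axis, involution day 6 minus nulliparous) of each tested gene of 6 related lists; orange points are genes called by limma, grey points are not called, and black lines are list medians. Orange points lie on both sides of 0 for bridging proteins and uptake receptors and for calcification control.

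The engulfment machinery showed 0 genes called higher and 1 lower of 17 tested by limma, with 4 and 2 at an unadjusted p under 0.05, and a median difference of 0.03. The 1 called was Trio, a guanine nucleotide exchange factor gene, which fell by 0.78 ± 0.13 (adjusted p = 0.0164 in limma). Of 14 genes of eat-me and do-not-eat-me signals, 1 was called higher and 0 lower by limma, with 1 and 0 at an unadjusted p under 0.05, and the median was -0.02. That gene was Panx1, which encodes a channel that releases find-me nucleotides from dying cells, and it rose 2.03-fold (adjusted p = 0.0121 in limma). Cd47, the do-not-eat-me signal, was at 13.10, 13.08 and 13.04 at involution day 6, against 13.07 and 13.13 in nulliparous libraries. Of 10 genes of TAM signalling and receptor shedding, 2 were called higher and 0 lower by limma, with 3 and 2 at an unadjusted p under 0.05, and the median was 0.12. They were Socs3, which rose 2.80-fold (adjusted p = 0.0136 in limma), and Socs1, which rose 1.93-fold (adjusted p = 0.0493 in limma). Socs1 lost its call under 8 of the 12 alternatives, among them equal medians and equal totals, at adjusted p of 0.0520 to 0.204 in limma. Both encode inhibitors of cytokine signalling that cytokines themselves also induce.

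Around Mgp, 13 other genes of calcification control were tested, of which 3 were called higher and 2 lower by limma. At an unadjusted p under 0.05 in limma these numbers were 6 and 2, and the median difference was 0.33. Enpp1, which makes the calcification inhibitor pyrophosphate, rose 2.36-fold, with log2 values of 10.82, 11.04 and 10.96 at involution day 6, against 9.67 and 9.73 in nulliparous libraries (adjusted p = 0.00285 in limma). Alpl, whose phosphatase breaks pyrophosphate down, fell by 1.06 ± 0.24 (adjusted p = 0.0425 in limma). Ahsg, the gene of the serum protein fetuin A, rose 3.86-fold, the phosphate transporter gene Slc20a2 rose 1.60-fold, and Smad6, an inhibitor gene of BMP signalling, fell by 0.93 ± 0.17. The nulliparous mean of Ahsg, 4.87, lay near the value of a row without reads. With the offset removed its log2 difference was 2.46 instead of 1.95. Spp1, the osteopontin gene, named after its values were seen, had log2 values of 15.36, 14.14 and 12.62 at involution day 6, against 11.68 and 8.10 in nulliparous libraries. Its groups did not overlap, but it varied widely within both, and the difference of 4.15 ± 1.17 did not pass (adjusted p = 0.0738 in limma). Without nulliparous replicate 1 it passed, at 5.94 (adjusted p = 0.0495 in limma), and without nulliparous replicate 2 it was 2.36. Spp1 ordered the 5 libraries as the macrophage markers did and followed the epithelial markers within each group, and the part of those cells in it was not tested.

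Of the 18 genes of these lists named by rule, F7, Lgals3 and Enpp1 were called under all 12 alternatives. With only rows without reads left out, 14 of the 18 lost the call (adjusted p up to 0.146 in limma), and without the prior trend 7 did (up to 0.0909 in limma). Without nulliparous replicate 1, 15 of the 18 lost it, Itgb5 among them, at adjusted p of 0.054 to 0.204 in limma, and 4 genes of the 6 lists were called higher and 0 lower. Without nulliparous replicate 2, 12 lost it, Panx1, Socs3, Trio and Trem2 among them, at 0.0551 to 0.170 in limma, with 4 called higher and 2 lower. Without involution day 6 replicate 2, 10 lost it, Ahsg, Smad6, Tub and Alpl among them, at 0.0702 to 0.141 in limma, with 6 called higher and 2 lower. Without involution day 6 replicates 1 or 3 the numbers lost were 5 and 6, and 10 genes were called higher each time. Itgb3, Megf11 and Slc20a2 lost the call whichever library was left out.

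The identity of the sorted cells and the depth behind these values were as follows. Col1a1, the most abundant of 8 fibroblast markers per kb of exon, Col1a2 and Dcn had log2 values from 18.52 to 20.45, and 0 of the 8 were called by limma, with 2 higher and 1 lower at an unadjusted p under 0.05. Per kb of exon, averaged over the 5 libraries, the most abundant markers of other lists were Krt18 for epithelium, Lyz2 for macrophages, Tek for endothelium, Acta2 for mural cells and Fabp4 for adipocytes. By limma 0 of 8 endothelial, 0 of 8 mural and 0 of 8 dissociation genes were called, with 0, 2 and 1 at an unadjusted p under 0.05. Of 3 adipocyte markers tested, Plin4 was called higher and Cfd lower. Cfd lost its call when the filter left out only rows without reads (adjusted p = 0.0534 in limma), and without either nulliparous replicate. Adipoq, Plin1, Cidec, Lep and Retn were below the filter. Unlogged totals above the offset ran from 40993357 to 43002174 at involution day 6, against 37564473 to 38947109 in nulliparous libraries.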

How the data were processed

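RNA of 5 libraries, 3 from involution day 6 and 2 from nulliparous glands, was sequenced after TruSeq version 2 preparation, per the labels' protocols. The submitters' processing notes name bcl2fastq, STAR 2.4.2a and GRCm38; counting, scaling and offset are not stated there or in the file. The authors deposited log2 values of scaled counts plus an offset. The 17395 rows without reads sit near 3.57, which gives an offset of 11.85 on the unlogged scale. Some values lie below 3.57, down to 3.44, so values depend on their row in an unknown way. No count test was run, and depth per gene is unknown, so error is judged from the spread between libraries.

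Rows with a mean of 4.45 or more, the log2 of the offset plus 10, were kept, 15912 of 28311 with reads. Groups were compared with limma 3.58.1 in R 4.3.3 (trended prior, two-sided, Benjamini-Hochberg over all genes kept, threshold 0.05), checked on simulated data. Members, lists and the filter were chosen with earlier results of these data known. Exon lengths and coordinates come from GENCODE M21 on GRCm38, 1-based. Alternatives covered the filter, the prior trend, 3 scalings, the offset replaced by 1, a replicate block and each library left out. The filter and the prior trend cannot change the difference of a gene, only its error and adjusted p. For all 9 members the replicate block gave the same difference as leaving out involution day 6 replicate 3. The alternatives are thus not independent of each other. The rule for named genes took all 9 members, up to 4 called genes of smallest p per list and direction, the most abundant marker per kb of each list, and the 3 genes nearest to Mgp, Gas6, Axl and Mfge8.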

Additional observations from a re-analysis of the deposited data

How the results depend on the processing

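With equal totals the log2 differences of Mgp, Pros1, Ggcx, Axl and Mertk moved by more than their spread between replicates, to 2.40, 0.85, -0.28, -0.50 and -0.037. Genes lying near 0 changed sign, with ranges over single libraries left out of -0.003 to 0.179 for Vkorc1 and -0.2 to 0.029 for Tyro3: Vkorc1 to -0.033 with equal totals, -0.003 with the replicate block and -0.003 without involution day 6 replicate 3, Mertk to -0.037 with equal totals, and Tyro3 to 0.009 with the replicate block, 0.009 without involution day 6 replicate 3 and 0.029 without nulliparous replicate 1. Over all genes the 1058 higher and 742 lower calls became 322 and 235 when only rows without reads were left out, and 686 and 482 without the prior trend. They became 1817 and 1449 with the replicate block, where Spp1 also gained a call, at 4.86 (adjusted p = 0.0013 in limma), and 803 and 1731 with equal totals. Leaving out 1 library gave 296 to 786 higher and 208 to 483 lower. The causes were not tested. Libraries share only replicate numbers, so the block is not read as a pairing, and it leaves 1 residual degree of freedom. Deviations from the group mean correlated at 0.577 for replicates 1 and 0.063 for replicates 2 across genes. The deviations of the 2 nulliparous libraries mirror each other, so these correlations cannot decide on a pairing. With 2 nulliparous libraries, the intervals given for Ggcx, Vkorc1, Mertk and Tyro3 limit what can be said of these genes.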
